A study of Mus musculus with 2 samples.

Results

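The genes described here encode the heat shock proteins and the DnaJ (J-domain) chaperones, together with heat shock factor 2. They were all genes whose platform symbol starts with Hspa, Hspb, Hspd, Hspe, Hsph, Hsp90 or Dnaj, or is Hsf1 or Hsf2, without pseudogenes and without the HSP70-binding proteins Hspbp1 and Hspbap1. This gave 69 genes on 72 rows, of 30142 genes with a row of their own and 65956 rows in all. Hsf1 and Hsp90ab1 had no row in the table used and were not analysed here. Of the 69 genes, 43 encode DnaJ proteins and 26 do not.

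The RNA came from flow-sorted Vγ6 γδ T cells of C57BL/6 thymus, taken when the mice were 0 days old. The mice were MHC class II KO, without the surface proteins that show peptides to CD4 T cells, or WT. The arrays were made to compare gene expression of these cells with and without MHC class II. Each group had 1 array, so no value below carries an error or a test and every difference describes this pair of arrays. The text speaks of MHC class II KO cells and WT cells for the cells of each array. Which gene was disrupted, and whether animals were pooled, is not stated in the labels.

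HSP70 proteins bind and release unfolded polypeptides in a cycle driven by ATP. J-domain proteins bring them clients and trigger ATP hydrolysis, and nucleotide exchange factors, among them the HSP110 proteins, reset them. HSP90 proteins act later on kinases, receptors and other clients, and the HSPD1 and HSPE1 chaperonin folds proteins inside mitochondria. Heat shock factors switch on the cytosolic set under proteotoxic stress, whereas the endoplasmic reticulum (ER) has its own HSP70, HSP90 and J-domain proteins, induced through the unfolded protein response (UPR).

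Signals are deposited intensities on the log2 scale, and each difference is the signal in MHC class II KO cells minus that in WT cells. The background, the 95th percentile of olfactory receptor rows, was a log2 signal of 5.86 in MHC class II KO cells and 5.94 in WT cells. The class II gene H2-Ab1 had a log2 signal of 6.67 in MHC class II KO cells and 7.68 in WT cells. H2-Aa had 5.08, not above background, in MHC class II KO and 6.09 in WT cells, and H2-Eb1 had 5.98 in MHC class II KO and 6.95 in WT cells, so all 3 were lower in MHC class II KO cells. Of 17 genes listed for Vγ6 and IL-17-producing γδ T cells, 15 had a row and all 15 were above background. Among them, Tcrg-V6 had 12.33 in MHC class II KO cells and 12.64 in WT cells. Il17a had 9.28 in MHC class II KO and 10.85 in WT cells (difference -1.57). Il17f had 8.30 in MHC class II KO and 11.18 in WT cells (difference -2.88). These were the 2 of the 15 at least 1.5-fold lower (3.17% of all genes above background were), and none was 1.5-fold higher (4.0% were). The median difference of the 14494 genes above background on at least 1 array was 0.04 and the robust SD of their differences was 0.25. For 160 genes measured by at least 2 rows, the differences of 2 rows of the same gene differed with an SD of 0.24. A difference of 0.58 is 1.5-fold and is the size used for counts.

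The promoters of 4 genes are shown because these were the members at least 1.5-fold apart, namely Hsph1, Hspa5 and Hsp90b1 on the higher side and Dnajb9 on the lower side. Each window holds 250 bases before and 50 after the annotated start, taken from RefSeq on build GRCm38.p6, where 56 of the 69 genes matched. Capitals mark a heat shock element (HSE, the boxes GAA, TTC and GAA with 2 free bases between neighbours), an ER stress element (ERSE, CCAAT and CCACG with 9 free bases between them) or its second form (ERSE-II, ATTGG and CCACG with 1 free base between them), each searched on both strands. No capital stretch in these windows joins 2 kinds of motif.
Hsph1, chr5:149636266-149636565, minus strand: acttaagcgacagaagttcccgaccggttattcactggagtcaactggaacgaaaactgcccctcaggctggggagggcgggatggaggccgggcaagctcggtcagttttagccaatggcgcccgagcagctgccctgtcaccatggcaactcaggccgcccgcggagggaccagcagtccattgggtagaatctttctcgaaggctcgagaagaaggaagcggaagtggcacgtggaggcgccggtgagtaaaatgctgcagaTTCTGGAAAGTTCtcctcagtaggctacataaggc
Hspa5, chr2:34771840-34772139, plus strand: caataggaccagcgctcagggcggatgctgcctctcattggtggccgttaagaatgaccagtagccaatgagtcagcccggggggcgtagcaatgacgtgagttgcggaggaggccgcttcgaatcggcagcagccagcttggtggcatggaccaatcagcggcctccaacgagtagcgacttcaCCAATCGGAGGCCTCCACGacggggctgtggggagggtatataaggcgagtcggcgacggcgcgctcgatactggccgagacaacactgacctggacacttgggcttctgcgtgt
Hsp90b1, chr10:86705395-86705694, minus strand: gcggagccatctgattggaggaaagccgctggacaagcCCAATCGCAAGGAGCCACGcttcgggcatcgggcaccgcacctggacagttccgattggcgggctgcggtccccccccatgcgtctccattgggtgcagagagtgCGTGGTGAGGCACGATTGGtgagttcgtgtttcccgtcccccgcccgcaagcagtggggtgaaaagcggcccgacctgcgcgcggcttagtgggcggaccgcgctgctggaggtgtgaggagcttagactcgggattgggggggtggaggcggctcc
Dnajb9, chr12:44210019-44210318, minus strand: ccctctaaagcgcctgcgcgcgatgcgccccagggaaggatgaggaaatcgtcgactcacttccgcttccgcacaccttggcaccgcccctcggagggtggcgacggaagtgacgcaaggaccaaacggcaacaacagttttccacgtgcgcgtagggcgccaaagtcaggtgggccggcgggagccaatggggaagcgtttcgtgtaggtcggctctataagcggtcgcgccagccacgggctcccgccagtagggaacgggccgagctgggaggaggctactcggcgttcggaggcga
The Hsph1 window, 1 of 2 that overlap, holds a heat shock element just after the annotated start. The Hspa5 window holds 1 ERSE before the start and the Hsp90b1 window holds 2, in opposite orientations. The Dnajb9 window holds none of the 3 motifs as spelled. Shorter stretches around the motifs of Dnajb11 and Dnajc3, ER genes discussed below, complete the set.
Dnajb11, chr16:22857832-22857882, plus strand: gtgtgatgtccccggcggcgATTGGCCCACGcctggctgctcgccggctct
Dnajc3, chr14:118937807-118937865, plus strand: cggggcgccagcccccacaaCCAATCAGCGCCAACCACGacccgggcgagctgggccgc
Of all 32851 promoter windows of this length, 0.603% hold the HSE, 0.119% the ERSE and 0.0365% the ERSE-II. A match describes letters in a window and does not show that a factor binds there.

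Of the 69 genes, 49 were above background on both arrays and 20 on neither. Among the 49, 3 were at least 1.5-fold higher in MHC class II KO cells (6.12%), where 4.0% of all genes above background were. A share of 2.04%, or 1 gene, was at least 1.5-fold lower, where 3.17% of all genes were. Both shares lie near those of all genes. The median difference of the 49 was 0.09, against 0.04 for all genes above background. Differences were above 0 for 36 of the 49 (73.5%) and for 56.4% of all genes above background, and centring on the median of all genes turned the sign of 6 of the 49. Dnajb5 had the same value on both arrays, as had 106 genes in all.

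**Figure D1:**
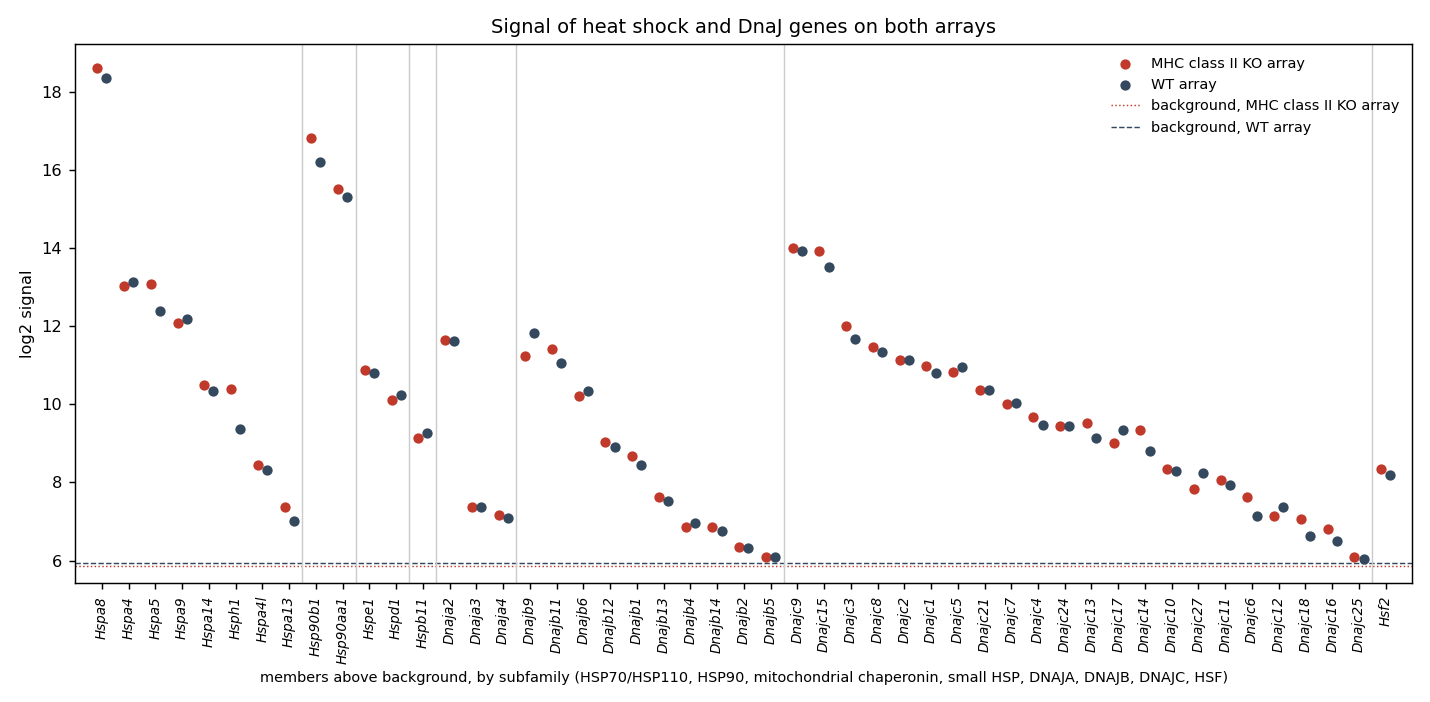
Log2 signal (vertical axis) of each of the 49 heat shock and DnaJ genes above background, in MHC class II KO cells (red, left point of each pair) and in WT cells (dark, right point). Grey lines separate subfamilies and the dotted and dashed lines are the backgrounds of 5.86 for MHC class II KO and 5.94 for WT. Paired points lie close together for most genes and are widest apart for Hsph1.

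The HSP70 and HSP110 genes held the highest single difference. Hsph1 encodes HSP105, a cytosolic HSP110 protein that exchanges nucleotide on HSP70 and is induced by heat shock factor. Its log2 signal was 10.40 in MHC class II KO cells and 9.38 in WT cells, a difference of 1.02, or 2.03-fold. It was the 1 member at least 2-fold apart (0.793% of all genes were at least 2-fold higher), no member was 2-fold lower (1.15% of all genes were), and 112 of the 14494 genes had a higher difference. The difference of Hsph1 was 0.98 after centring on the median of all genes and 0.93 after a loess correction, both under 2-fold. The other HSP110 genes among the members, Hspa4 and Hspa4l, were near 0. Hspa4 had a log2 signal of 13.02 in MHC class II KO cells and 13.13 in WT cells (difference -0.11), and Hspa4l had 8.45 in MHC class II KO and 8.32 in WT cells (difference 0.12).

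Hspa5 encodes BiP, the HSP70 of the ER lumen and the sensor partner of the UPR. Its log2 signal was 13.07 in MHC class II KO cells and 12.39 in WT cells, a difference of 0.68 (1.60-fold). Hspa13, an HSP70-like gene whose product is linked to the ER, had 7.38 in MHC class II KO and 7.01 in WT cells (difference 0.37). The mitochondrial HSP70 gene Hspa9, which encodes mortalin, had 12.09 in MHC class II KO cells and 12.20 in WT cells (difference -0.11). Hspa14, whose product works with that of Dnajc2 on nascent chains at the ribosome, had 10.49 in MHC class II KO and 10.33 in WT cells (difference 0.15). Of the 8 HSP70 and HSP110 genes above background, 6 had differences above 0 (56.4% of all genes above background) and the median was 0.19.

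Hspa8 encodes HSC70, the constitutive cytosolic HSP70. It was named on 4 rows whose IDs place them on chromosomes 1, 6 and 14, whereas the gene lies on chromosome 9, so which copy of the sequence they read is not known. Their log2 signals were 18.54 to 18.60 in MHC class II KO cells and 18.31 to 18.36 in WT cells. The differences were 0.23 to 0.24, and the signals lie above the largest value a 16-bit scanner can read. A row on chromosome 9 names Hspa8 together with Snord14c, Snord14d and Snord14e, small nucleolar RNA genes, and cannot be given to 1 gene. It had 14.16 in MHC class II KO cells and 13.74 in WT cells (difference 0.42). All these rows were higher in MHC class II KO cells, by amounts under 1.5-fold.

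The stress-induced HSP70 genes were under background. Hspa1a had a log2 signal of 4.20 in MHC class II KO cells and 4.13 in WT cells, under both backgrounds, and so did the row that names Hspa1a with Hspa1b (4.68 in MHC class II KO and 5.07 in WT cells). Hspa1l and Hspa2, known mainly from testis, and Hspa12a and Hspa12b were also under background. No fold is given for genes under background on both arrays.

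Both HSP90 genes with a row were higher in MHC class II KO cells. Hsp90b1 encodes GRP94, the HSP90 of the ER lumen, whose clients include integrins and Toll-like receptors. Its log2 signal was 16.83 in MHC class II KO cells and 16.21 in WT cells, a difference of 0.61 (1.53-fold). Both signals lie above the scanner limit. After centring on the median of all genes above background its difference was 0.57, under 1.5-fold. Hsp90aa1, the inducible cytosolic HSP90 gene, had 15.52 in MHC class II KO and 15.31 in WT cells (difference 0.21), and the 2 rows that name it with a predicted gene had differences of 0.16 and 0.26.

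The mitochondrial chaperonin pair lay close to 0. Hspe1, the co-chaperonin, had a log2 signal of 10.88 in MHC class II KO cells and 10.81 in WT cells (difference 0.08). Hspd1, the HSP60 subunit that forms the folding chamber with it, had 10.11 in MHC class II KO and 10.23 in WT cells (difference -0.12). Their shared promoter region holds 2 overlapping heat shock elements in each gene's window, the same motif that is found in the Hsph1 window. Of the small heat shock genes, holdases that keep unfolded proteins from aggregating, 7 of 8 were under background, Hspb1 among them at 4.90 in MHC class II KO cells and 5.04 in WT cells. The exception was Hspb11, with 9.13 in MHC class II KO and 9.26 in WT cells (difference -0.13), whose product is also known as IFT25, a part of the intraflagellar transport complex. Hsf2, which encodes a heat shock factor with roles in development, had 8.35 in MHC class II KO cells and 8.20 in WT cells (difference 0.15).

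**Figure D2:**
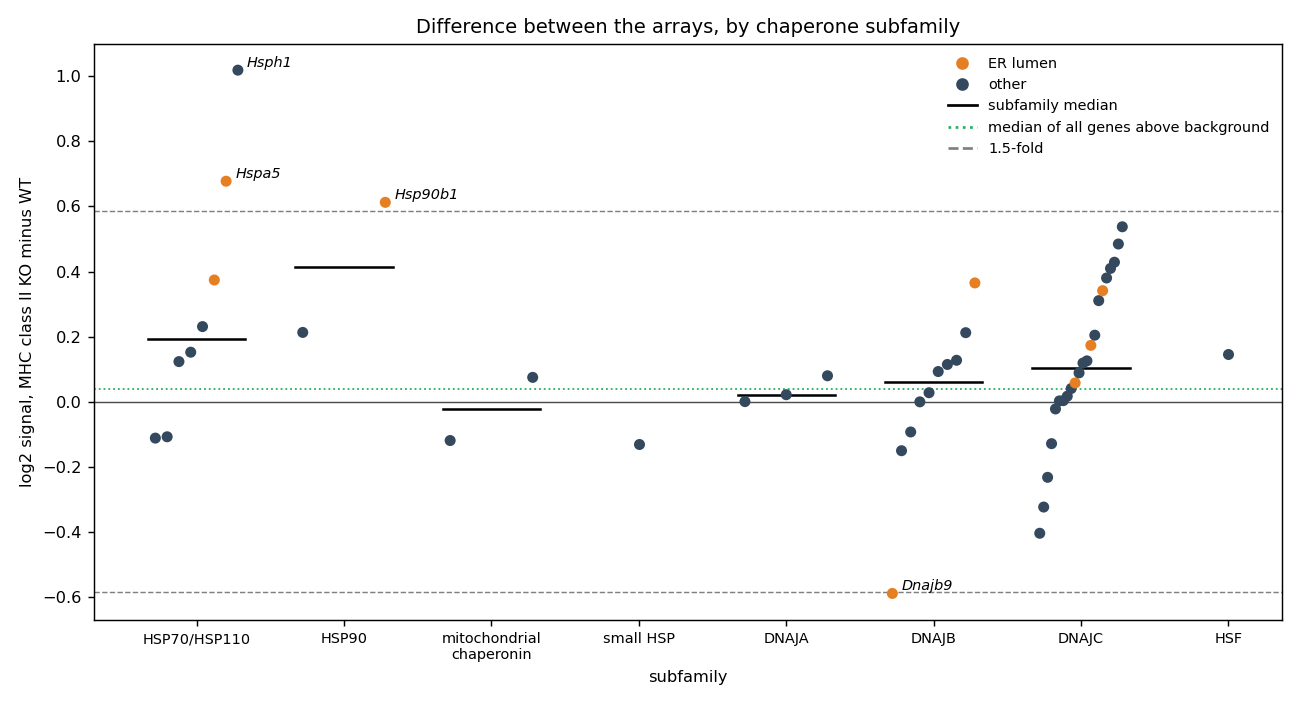
Difference in log2 signal, MHC class II KO minus WT (vertical axis), for the 49 genes above background by subfamily; orange points are genes whose products work in the ER lumen, black bars are subfamily medians. Dashed lines mark 1.5-fold and the green dotted line the median of all genes (0.04). Hsph1, Hspa5 and Hsp90b1 lie above the upper dashed line and Dnajb9 lies at the lower one.

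The DnaJ genes had smaller differences than the chaperones above at their upper end, with none of 35 above background reaching 1.5-fold on the higher side and 1 on the lower side (4.0% and 3.17% of all genes). Their median was 0.08. The DNAJA genes, which resemble bacterial DnaJ most closely, had differences of 0.00 to 0.08 with a median of 0.02, which was under 0 after centring and after a loess correction. Dnaja2, a cytosolic partner of HSC70, had a log2 signal of 11.64 in MHC class II KO cells and 11.62 in WT cells. Dnaja3, the mitochondrial partner of mortalin, had 7.38 on both, and Dnaja4 had 7.18 in MHC class II KO and 7.10 in WT cells (difference 0.08).

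Among the DNAJB genes, Dnajb9 and Dnajb11 lay at opposite ends. Both encode J-domain partners of BiP in the ER lumen, and ERdj4, the product of Dnajb9, also restrains the UPR sensor IRE1. Dnajb9 had a log2 signal of 11.25 in MHC class II KO cells and 11.83 in WT cells, a difference of -0.59, just past 1.5-fold. Dnajb11 (ERdj3) had 11.42 in MHC class II KO and 11.05 in WT cells, a difference of 0.37. Dnajb1, the heat-inducible cytosolic HSP40, had 8.67 in MHC class II KO cells and 8.46 in WT cells (difference 0.21). Dnajb6, a suppressor of protein aggregation, had 10.20 in MHC class II KO and 10.35 in WT cells (difference -0.15), and its promoter windows hold a heat shock element. The remaining DNAJB genes above background, from Dnajb4 at -0.09 to Dnajb12 at 0.13, lay between these, and Dnajb3, Dnajb7 and Dnajb8 were under background.

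The DNAJC genes, the most varied class, share little with each other beyond the J domain. Of 22 above background, 17 had differences above 0 (56.4% of all genes above background) and the median was 0.10. None reached 1.5-fold, where 4.0% of all genes were that much higher and 3.17% lower. Dnajc14, a J-domain protein of the ER membrane, came nearest, with a log2 signal of 9.35 in MHC class II KO cells and 8.81 in WT cells (difference 0.54). Dnajc6 encodes auxilin, which recruits HSC70 to uncoat clathrin vesicles, and had 7.64 in MHC class II KO and 7.15 in WT cells (difference 0.48). Dnajc15, or MCJ, sits in the mitochondrial inner membrane and restrains complex I. It had 13.91 in MHC class II KO cells and 13.50 in WT cells (difference 0.41). Dnajc13, an endosomal sorting factor, had 9.53 in MHC class II KO and 9.15 in WT cells (difference 0.38), and Dnajc18, of the ER membrane, had 7.07 in MHC class II KO and 6.64 in WT cells (difference 0.43).

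At the lower end, Dnajc27, a Rab-like GTPase with a J domain, had a log2 signal of 7.83 in MHC class II KO cells and 8.24 in WT cells (difference -0.40). Dnajc17, which is linked to pre-mRNA splicing, had 9.01 in MHC class II KO and 9.33 in WT cells (difference -0.32). Dnajc12, a co-chaperone of the aromatic amino acid hydroxylases, had 7.14 in MHC class II KO and 7.37 in WT cells (difference -0.23). Several DNAJC genes with housekeeping roles had differences near 0. Dnajc9, a histone chaperone, had 14.01 in MHC class II KO cells and 13.92 in WT cells (difference 0.09). Dnajc2 at the ribosome, Dnajc21 in ribosome biogenesis and Dnajc24 in diphthamide synthesis had differences of 0.00, 0.02 and 0.00. Dnajc1, Dnajc3 and Dnajc10 are described below with the ER lumen group. Apart from these, the 7 others above background ran from Dnajc5, the cysteine string protein gene, at -0.13 to Dnajc16 at 0.31. Dnajc22, Dnajc28, Dnajc30, Dnajc5b and Dnajc5g were under background.

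Members were grouped by the compartment where their products were taken to work, a grouping made after the values were seen. The genes grouped with the ER lumen stood mostly on the higher side. Of 8 such genes, 7 had differences above 0, and 2, Hspa5 and Hsp90b1, were at least 1.5-fold higher, while 1, Dnajb9, was at least 1.5-fold lower. Of all genes above background, 56.4% had differences above 0, 4.0% were at least 1.5-fold higher and 3.17% lower. The others were Hspa13 and Dnajb11 at 0.37 each, Dnajc3 at 0.34, Dnajc1 at 0.17 and Dnajc10 at 0.06, with Dnajb9 at -0.59. Dnajc3 encodes p58IPK, a lumenal J-domain protein induced in the UPR, and had a log2 signal of 12.01 in MHC class II KO cells and 11.66 in WT cells. The median of the 8 was 0.35, against 0.08 for the 41 other members above background and 0.04 for all genes above background. On the same arrays the median was 0.74 for markers of double positive thymocytes and 0.64 for mitosis genes. The 4 genes grouped with the ER membrane, Dnajb12, Dnajb14, Dnajc14 and Dnajc18, were all above 0, with a median of 0.28. The 6 mitochondrial genes above background ran from -0.12 to 0.41 with a median of 0.04.

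**Figure D3:**
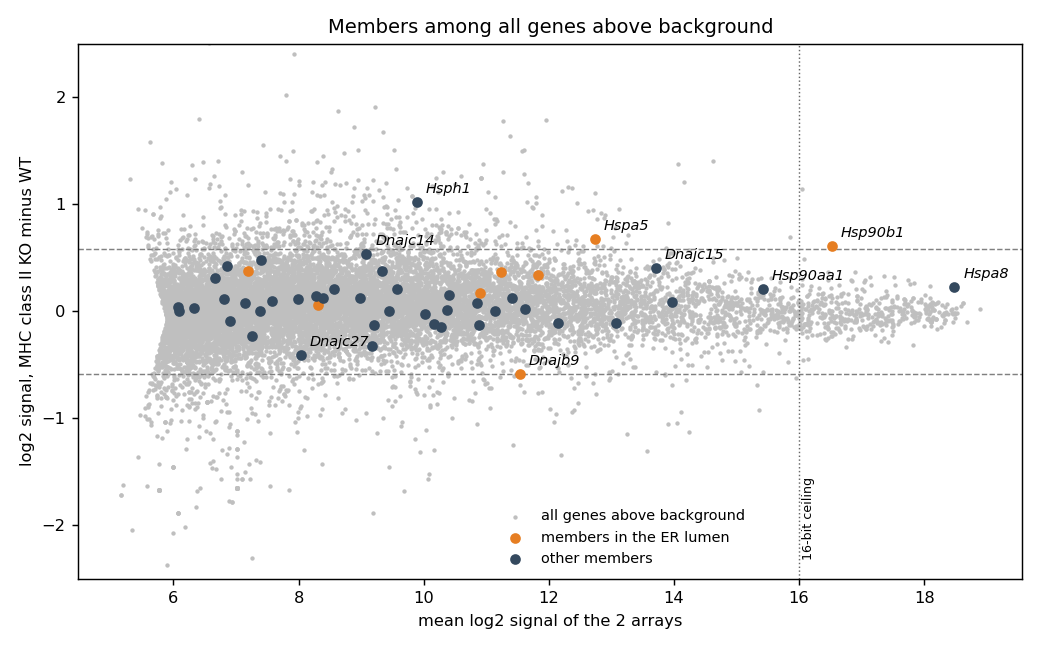
Difference in log2 signal, MHC class II KO minus WT (vertical axis), against the mean log2 signal of the 2 arrays (horizontal axis) for all 14494 genes above background (grey) with the heat shock and DnaJ genes on top (orange for the ER lumen, dark for the others). The dotted line is the 16-bit scanner limit and 8 genes lie beyond the vertical range; Hspa5 and Hsp90b1 lie above most genes of like signal.

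Differences of the whole table narrow at high signal. Of 2128 genes with a mean log2 signal of 12 or more, 37 (1.74%) were at least 1.5-fold higher in MHC class II KO cells, and Hspa5 and Hsp90b1 were among them. The median of those 2128 genes was 0.02, and that of the 8 members in the same range was 0.22.

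Genes that work with these chaperones were read from lists chosen for their function, with earlier results of these data known. Of 20 ER folding and UPR genes above background, none of them a member by symbol, 16 were above 0, 4 reached 1.5-fold on the higher side and none on the lower, with a median of 0.22. Of all genes above background, 56.4% were above 0, 4.0% reached 1.5-fold on the higher side and 3.17% on the lower. Sdf2l1, part of an ER chaperone complex with ERdj3, had a log2 signal of 12.31 in MHC class II KO cells and 11.29 in WT cells (difference 1.02). Creld2, an ER stress-induced protein, had 13.19 in MHC class II KO and 12.24 in WT cells (difference 0.95), and Herpud1, of the ER degradation machinery, had 12.66 in MHC class II KO and 11.90 in WT cells (difference 0.76). Xbp1, the transcription factor activated by IRE1, had 12.16 in MHC class II KO cells and 11.50 in WT cells (difference 0.66). Not all UPR genes were higher. Ddit3, the CHOP gene, and Ern1, which encodes IRE1, both differed by -0.08, Atf4 differed by 0.09, and the kinase gene Eif2ak3 (PERK) was the lowest at -0.15.

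The HSP70 co-chaperone list holds cytosolic, mitochondrial and ER genes, among them Sil1 and Hyou1, and Hyou1 is also on the ER folding list. Of 14 of its genes above background, 13 had differences above 0 (56.4% of all genes above background). None was 1.5-fold apart, where 4.0% of all genes were higher and 3.17% lower by that much. The median was 0.21, close to that of the ER folding list. The 14 genes ran from the BiP exchange factor gene Sil1 (-0.33) to St13 (0.49), which encodes HIP, a stabiliser of HSP70. Of 19 HSP90 co-chaperone genes, none was 1.5-fold apart and the median was 0.10. Chordc1 had the highest difference (0.45) and Fnip1 the lowest (-0.31). Ahsa1, which activates the ATPase of HSP90, had 13.02 in MHC class II KO cells and 12.58 in WT cells (difference 0.44). The 12 genes of the cytosolic chaperonin and prefoldin had a median of 0.00, from Pfdn1 at -0.27 to Cct4 at 0.16, and 10 mitochondrial proteostasis genes had a median of 0.12, from Afg3l2 at 0.00 to Spg7 at 0.28. Only 4 of 9 genes related to heat shock factor or general stress were above background, from Sqstm1 at -0.22 to Hsbp1 at 0.14. Bag3 and Hmox1, known for strong induction under stress, were under it.

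**Figure D4:**
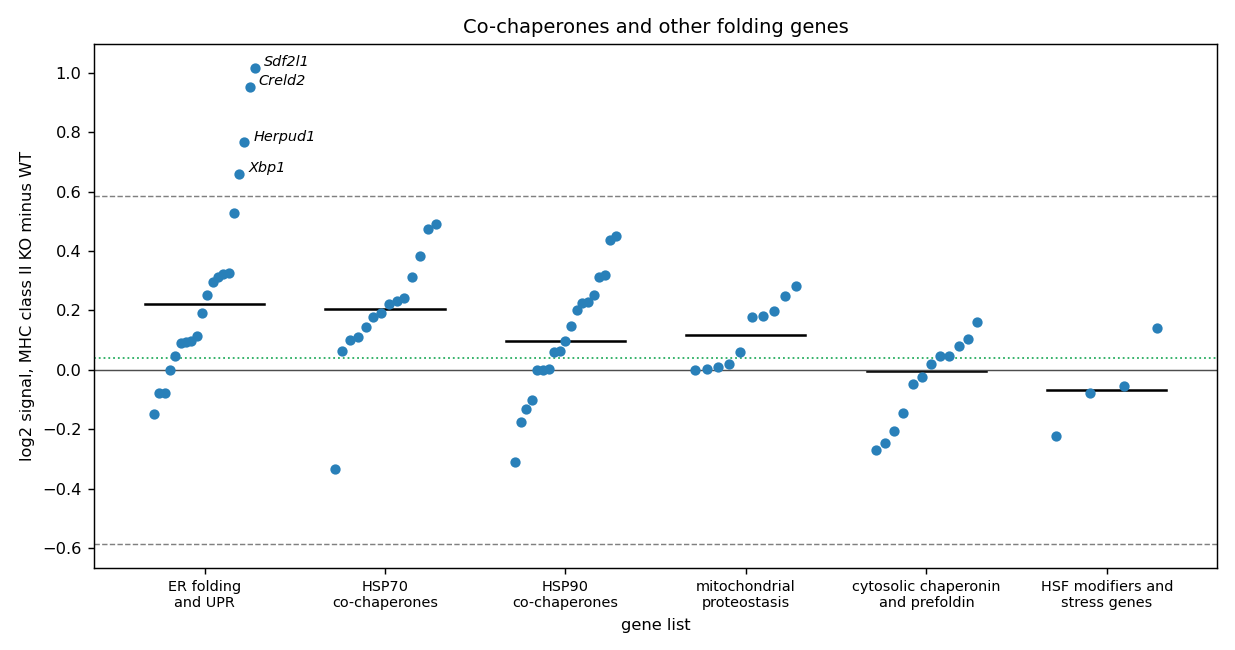
Difference in log2 signal, MHC class II KO minus WT (vertical axis), for genes above background of 6 lists of co-chaperones and folding genes; black bars are list medians, dashed lines 1.5-fold and the green dotted line the median of all genes. The 4 genes past 1.5-fold, Sdf2l1, Creld2, Herpud1 and Xbp1, are all on the ER folding list.

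The promoter motifs shown above were also looked up for the 8397 genes above background that had a promoter window. The ERSE was found for 20 of them, with a median of 0.34. Of these 20, 18 were above 0 (56.4% of all genes above background). On the higher side 8 reached 1.5-fold (4.0% of all genes) and on the lower side none did (3.17%). Of the 20, 3 were Hspa5, Hsp90b1 and Dnajc3, and 5 more were on the ER folding list. Of the 8, 3 were Xlr3a, Xlr3b and Xlr3c, close paralogues on the X chromosome whose rows may share sequence. Without the Xlr3 genes, 5 of 17 were at least 1.5-fold higher. Without the Xlr3 genes and the 3 chaperone genes, 3 of 14 were, Creld2, Alg12 and Tdrd9, and the median was 0.30. These 14 still hold the 5 genes on the ER folding list, Creld2 among them. The HSE was found for 46 genes above background, of which 30 were above 0, with a median of 0.11. Hsph1 was the 1 at least 1.5-fold higher and none was lower, where 4.0% and 3.17% of all genes were. The 9 genes with the ERSE-II had a median of -0.02, with Herpud1 and Dnajb11 at the top. The shares of all genes beside these counts are over all 14494 genes above background, also those without a promoter window. The 8397 genes with a window had a median of 0.07, and their own shares were not computed.

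Other gene groups differed in the same comparison. For reference, 56.4% of all genes above background differed by more than 0, 4.0% were at least 1.5-fold higher and 3.17% lower. Of 14 double positive thymocyte markers with a row, 13 were above background on at least 1 array (Rag2 was not), each of the 13 differed by more than 0, and 9 by 1.5-fold or more. Their summed linear signal was 38977 in MHC class II KO cells and 18160 in WT cells. Most of both sums came from Cd8b1, with a log2 signal of 14.75 in MHC class II KO and 13.38 in WT cells. Each of the 22 mitosis genes with a row also differed by more than 0, and 14 by 1.5-fold or more. Their summed linear signals were 155753 in MHC class II KO and 102316 in WT cells. Most of both sums came from Mki67, at 16.32 in MHC class II KO cells, above the scanner limit, and 15.83 in WT cells. The part of these thymocyte and mitosis genes in the values of the chaperone genes was not tested. In sorted bulk RNA the share of a cell type and the RNA per cell cannot be told apart. Immediate early genes, which dissociation can induce, had summed linear signals of 62400 in MHC class II KO cells and 68682 in WT cells. Most of both sums came from Dusp1, at 15.46 in MHC class II KO and 15.56 in WT cells. Of these genes 11 of 12 were above background, 7 with differences above 0 and 4 below. None was at least 1.5-fold higher and 1 was lower, Nr4a1, with 12.03 in MHC class II KO and 12.89 in WT cells (difference -0.86). Markers of B and myeloid cells were above background for 5 of 12 (sums 1090 in MHC class II KO and 909 in WT cells), with Cd79a, Ms4a1, Csf1r and Adgre1 under it. Of these 5, 3 had differences above 0 and 2 below. The macrophage marker Cd68 was the 1 at least 1.5-fold higher, and none was 1.5-fold lower. Cd68 was the brightest of the list, with 8.92 in MHC class II KO and 8.02 in WT cells (difference 0.91). The 2 below 0 were the myeloid genes S100a9 and S100a8, with differences of -0.46 and -0.33. Markers of thymic epithelium were above background for 5 of 11 (sums 537 in MHC class II KO and 593 in WT cells), with Foxn1, Psmb11 and Krt5 under it. Of these 5, 2 had differences above 0 and 3 below. Ccl25, the 1 above background on both arrays, had 7.39 in MHC class II KO and 7.49 in WT cells. Krt8 had 5.10, under background, in MHC class II KO and 6.11 in WT cells. Epcam had 5.67, under background, in MHC class II KO and 6.09 in WT cells. Cd83 and Ly75 were above background in MHC class II KO cells only (differences 0.48 and 0.33). Of 3 red cell genes with a row 1 was above it (sums 119 in MHC class II KO and 134 in WT cells).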

How the data were processed

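RNA of 1 sorted sample per genotype was hybridised to whole-transcript GeneChip arrays after biotin labelling, per the labels' protocols. RMA and Affymetrix Expression Console 1.4.1 are named per the submitters' processing notes, while neither source gives the RMA variant or the genome build. Each transcript cluster has 1 deposited intensity per array, not on a log scale. They ran from 6.71 to 487523 in MHC class II KO cells and from 6.45 to 480711 in WT cells, and 742 MHC class II KO and 767 WT values lay above 65535, the limit of a 16-bit scanner, so an unstated step may have stretched or narrowed every fold. The number of arrays limits the precision.

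The log2 of each value was taken with Python 3.11.15 and pandas 2.3.3. Rows were named from the platform annotation, which can be old; 30604 rows had 1 symbol, 2146 several and 33206 none. Symbols were updated through the gene identifier against RefSeq GRCm38.p6, which matched 22818 rows. Of several rows of a gene the brightest was used. Genes above background on either array were kept, with background at the 95th percentile of 1228 olfactory receptor rows. Signals are given for Hsf2 and for members at least 1.5-fold apart. They are also given for the 3 with the highest signal and the highest and lowest difference of each subfamily. Other members were named for their role or, as Dnajc6, Dnajc12, Dnajc13, Dnajc17 and Dnajc18 were, for a high or low difference. Of each list of partner genes the highest and lowest difference was named, and further genes of the lists or with a motif were chosen after their values were seen. The members and gene lists were chosen with earlier results of these data known. The 1.5-fold calls, the loess fit and quantile normalization were tested on simulated data, and the motif search was not. Alternatives were 3 other scalings, 4 other filters, raising values to background, averaging rows, adding rows with several symbols, counting every row, a 2-fold threshold and means; 2 that leave members out were added after the data were seen.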

Additional observations from a re-analysis of the deposited data

How the results depend on the processing

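With a 2-fold threshold and the deposited scaling, 1 member, Hsph1, was higher in MHC class II KO cells and 0 lower. Hsph1 was under 2-fold after centring and after the loess correction. The design has no test, so no count by another tool exists. The median of the HSP70 and HSP110 genes was 0.069 with no background filter, 0.30 with rows of several symbols added and 0.29 as a mean. The median of the HSP90 genes was 0.24 with rows of several symbols added and 0.21 without members past the scanner limit, which leaves Hsp90aa1 alone. The mean of the ER lumen genes was 0.25, pulled down by Dnajb9. The 124 other values of counts and medians under the alternatives moved by less than 0.1 or, for counts, by no more than 1.5 times. The count of higher members was 2 after centring, where Hsp90b1 fell under 1.5-fold, and 2 without members past the scanner limit. Hsph1 ranged from 0.93 to 1.02, Hspa5 from 0.62 to 0.68 and Dnajb9 from -0.66 to -0.59 over all alternatives run. Centring, quantile normalization and the loess correction (fraction 0.3) changed the sign of 6, 3 and 6 of the 49 members, and the largest shift was 0.09. The median of the DNAJA genes was -0.02 after centring and -0.05 after loess. No paired analysis was possible because each group has 1 array. Signals under background have no order, which limits what can be said of the 20 members there, and no value has a replicate error.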

Other observations

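The rows left out of the gene counts for their pseudogene symbols were all above background. The 8 rows, among them 5 with Hspe1 pseudogene symbols, had differences from -0.11 to 0.08. Hspe1-ps3 had a log2 signal of 12.80 in MHC class II KO cells and 12.90 in WT cells, and Dnajc19-ps had 13.35 in MHC class II KO and 13.37 in WT cells. Of the 7 rows that name a member together with another gene, 6 were above background. The row that names Hspa8 with the predicted gene Gm15459 differed by 0.46, the row that names Dnajc19 with Dnajc19-ps by 0.08, and the row that names Dnaja1 with Mir207 by -0.01.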
